A study of Mus musculus with 8 samples.

Results

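Expression of 10 genes of bone morphogenetic protein (BMP) signalling was followed across cells sorted from 3 mouse organs: the ligand genes Bmp2, Bmp3, Bmp4, Bmp5, Bmp6 and Bmp7, and the receptor genes Bmpr1a, Bmpr1b, Acvrl1 and Bmpr2. They were chosen by gene symbol, and all 10 were present among the 21649 genes of the deposited table. The cells, labelled as non-vascular smooth muscle cells, came from bladder (3 libraries), intestine (3 libraries) and lung (2 libraries) and were isolated by fluorescence-activated sorting to compare such cells between organs. Every mouse had the genotype Cspg4-Dre/Acta2-CreERT/R26-GFP: the recombinase Dre under the NG2 gene Cspg4, a tamoxifen-activated Cre under the smooth muscle actin gene Acta2, and a fluorescent reporter at the Rosa26 locus. All groups received tamoxifen into the peritoneum, 0.75 mg per 10 g of body weight on 3 days, and there was no group without tamoxifen or recombinase. The sources used here give neither the age of the mice nor the way both recombinases act on the reporter. The labels do not tie the libraries of an organ to different animals. The p-values therefore measure library-to-library spread alone, and that spread may be technical.

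BMPs are secreted dimers of the TGF-beta superfamily. A ligand brings together type I receptors (such as those encoded by Bmpr1a, Bmpr1b and Acvrl1) and type II receptors (such as that encoded by Bmpr2), and the active complex phosphorylates SMAD1, SMAD5 and SMAD9, which enter the nucleus with SMAD4 and switch on genes such as those of the ID family. Secreted antagonists, among them noggin, gremlins, chordin and follistatin, bind ligands outside the cell. BMP2 and BMP4 form one close subgroup of ligands and BMP5, BMP6 and BMP7 another, whereas BMP3 is a divergent member known mainly as an antagonist of the other BMPs. In the gut wall, BMPs from the mesenchyme restrain proliferation of the epithelium, and in the lung loss of BMPR2 function is known for its link to pulmonary arterial hypertension.

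The RefSeq promoter table (build GRCm38.p6) held 6 of the 10 genes (Bmp4, Bmp5, Bmp6, Bmpr1a, Bmpr1b and Bmpr2). The 250 bases before the annotated start are shown for the 3 ligands, because their levels took different courses over the organs, and for the receptor genes with the smallest and the largest range of organ differences, Bmpr1a and Bmpr1b (its most upstream start). Sequences run 5′ to 3′ on the gene's strand, and capitals mark CG dinucleotides.
Bmp4, chr14:46390670-46390919, minus strand: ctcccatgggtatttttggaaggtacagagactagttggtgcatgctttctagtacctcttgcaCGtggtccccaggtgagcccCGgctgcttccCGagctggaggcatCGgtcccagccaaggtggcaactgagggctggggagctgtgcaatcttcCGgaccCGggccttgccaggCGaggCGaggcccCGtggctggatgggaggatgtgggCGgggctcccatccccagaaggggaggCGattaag
Bmp6, chr13:38345466-38345715, plus strand: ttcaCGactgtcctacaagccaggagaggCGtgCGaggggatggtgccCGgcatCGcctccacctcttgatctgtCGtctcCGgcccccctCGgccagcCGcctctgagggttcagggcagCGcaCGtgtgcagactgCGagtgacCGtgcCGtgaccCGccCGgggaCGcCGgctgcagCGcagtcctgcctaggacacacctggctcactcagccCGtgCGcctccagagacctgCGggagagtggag
Bmp5, chr9:75775115-75775364, plus strand: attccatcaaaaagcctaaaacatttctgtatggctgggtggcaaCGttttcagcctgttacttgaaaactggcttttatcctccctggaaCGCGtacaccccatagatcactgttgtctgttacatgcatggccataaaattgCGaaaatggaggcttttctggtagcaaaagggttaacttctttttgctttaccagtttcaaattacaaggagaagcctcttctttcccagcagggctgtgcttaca
Bmpr1a, chr14:34502547-34502796, minus strand: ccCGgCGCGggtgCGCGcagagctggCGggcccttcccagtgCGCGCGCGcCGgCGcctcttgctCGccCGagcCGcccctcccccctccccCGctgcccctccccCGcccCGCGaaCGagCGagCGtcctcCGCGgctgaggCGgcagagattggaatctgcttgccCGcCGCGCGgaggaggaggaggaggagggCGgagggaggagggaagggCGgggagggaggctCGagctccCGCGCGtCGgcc
Bmpr1b, chr3:141982265-141982514, minus strand: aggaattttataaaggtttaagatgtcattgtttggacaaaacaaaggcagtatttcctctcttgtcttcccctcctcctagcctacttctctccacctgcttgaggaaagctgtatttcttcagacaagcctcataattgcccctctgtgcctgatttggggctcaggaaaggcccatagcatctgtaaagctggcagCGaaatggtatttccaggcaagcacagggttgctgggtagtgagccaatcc
The Bmpr1a window held 36 CG dinucleotides, a number that 2.58% of all 32851 promoter windows of this length reached or passed. The most upstream Bmpr1b window held 1, a number that 92.1% reached or passed. Windows at the other Bmpr1b starts held 5 each, which 55.6% reached or passed, so the low number belongs to the start shown. The Bmpr2 window, not shown, held 22. Among the ligands, Bmp6 had 22 CG dinucleotides, Bmp4 had 11 and Bmp5 had 4, beside a median of 6 over all windows. Bmp4 and Bmp6, both highest in bladder, had GC contents of 63.2% and 68.8%, and Bmp5 had 42.8%, beside a median of 52.4%. The letters GGCGCC, which are bound by BMP-activated SMADs, were searched on both strands (the motif is its own reverse complement). They occurred in the windows of Bmpr1a and Bmpr2 and not in those of Bmp4, Bmp5, Bmp6 or Bmpr1b, beside 9.59% of all windows. The CArG box, the binding motif of serum response factor in smooth muscle genes, was in none of the 6 genes' windows and in 1.47% of all windows. TATAAA on either strand was in the most upstream Bmpr1b window, where matches on both strands overlap, in no window of the other 5 genes and in 12.4% of all windows. These matches describe letters in short windows and do not show binding.

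Depth, reconstructed from the spacing of the deposited normalized values, ran from 9.72 M reads (M for mega) in a bladder library to 13.6 M in a lung library. All 3 bladder libraries were shallower than the other 5, which had 12.0 M or more. All 10 genes of a smooth muscle list were above 0 in every library, and summed to 1739 to 2119 ppm of all values in bladder, 3114 to 3353 in intestine and 3365 to 3571 in lung. The sums do not hold for each gene. Against bladder, 6 of the 10 were higher and 2 lower in intestine, and 6 higher and 0 lower in lung (limma adjusted p under 0.05). The shares of all genes are given below. Genes that drive the recombinases were read in every library, with Acta2 at 2323 to 2933 and Cspg4 at 387 to 433 in bladder and 4045 to 4757 in the other organs. Fibroblast genes summed to 5831 to 6441 ppm in bladder, 4322 to 4613 in intestine and 3403 to 3870 in lung, and pericyte and vascular smooth muscle genes to 907 to 950, 2639 to 2800 and 2120 to 2502 ppm. Of the 10 pericyte and vascular smooth muscle genes, 7 were higher and 1 lower in intestine than in bladder, and 7 and 0 in lung. Genes of general epithelium summed to 350 to 568, 1590 to 1694 and 67.6 to 111 ppm. Transcripts typical of other cells were thus present. The level of a gene is that of the sorted fraction, and in such bulk samples fewer cells of a type and less RNA per cell cannot be told apart.

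Values below are normalized read counts, and fold changes come from limma on log2(value + 1), a scale that understates changes of low genes. A gene was called different at a Benjamini-Hochberg adjusted p under 0.05 over the 18097 genes reaching 10 or more in 2 or more libraries. All 10 BMP genes passed that filter. Over the 3 organs 9 of the 10 differed (limma F test), all but Bmpr1a, whereas 62.9% of all genes tested did. With each of the 3 other scalings tried (equal totals, quantile normalization, and the deposited scaling undone) all 10 passed that test. Bmpr2 passed narrowly in the main fit (limma F test adjusted p = 0.0433). Of the 10, 8 passed without the intensity trend of limma, with a replicate block, and without bladder library 1 or 3 or intestine library 2 or 3. Fits without a lung library, which leave 1 library of that organ, are not counted in this list. Between intestine and bladder 7 of the 10 were called, 1 higher and 6 lower in intestine, beside 51.9% of all genes (28.7% higher and 23.3% lower). Between lung and bladder 6 were called, 1 higher and 5 lower in lung, beside 41.0% of all genes (19.2% higher and 21.8% lower). With the deposited scaling undone, which leaves depth differences in the values and raises the median gene by 0.45 (intestine) and 0.48 (lung) over bladder on the log2 scale, 3 were higher and 4 lower in lung. With equal totals or quantile normalization 2 were higher and 5 lower. Between lung and intestine 7 were called, 4 higher and 3 lower in lung, beside 39.5% of all genes (15.9% higher and 23.6% lower). The median absolute log2 difference of the 10 genes was 1.29, 0.95 and 1.98 in these comparisons, beside 0.57, 0.50 and 0.48 over all genes tested. The 3 comparisons share libraries and are not independent. Since 39.5% to 51.9% of all genes were called between any pair of organs, these counts describe the family and do not set it apart. By ranges alone, the libraries of both organs did not overlap for 7 genes between intestine and bladder (63.4% of all genes), 8 between lung and bladder (58.1%) and 7 between lung and intestine (58.6%).

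**Figure D1:**
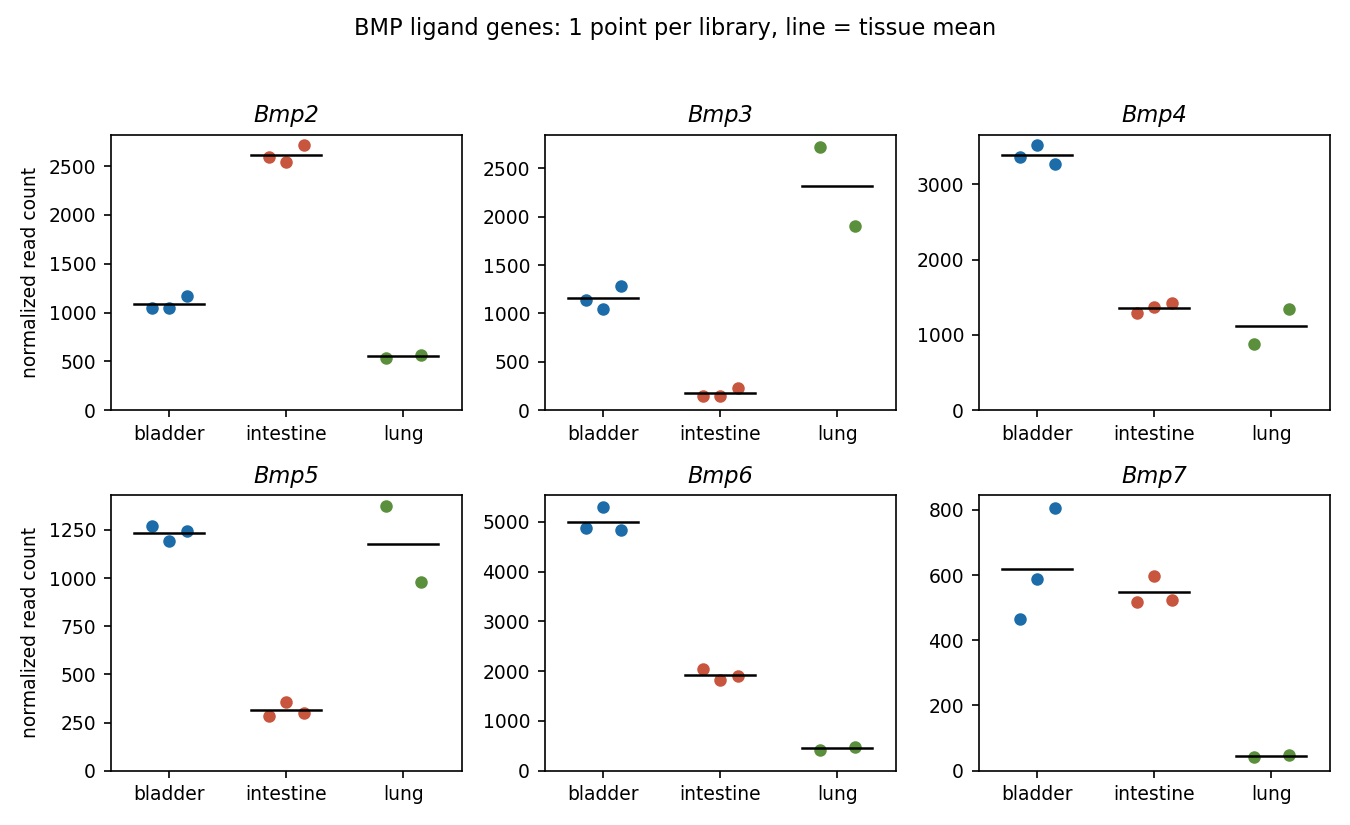
Normalized read counts of the 6 BMP ligand genes (vertical axes from 0, scaled per gene) in bladder, intestine and lung, with 1 point per library and a line at the mean of each organ. Bmp2 is highest in the 3 intestine libraries, Bmp4 and Bmp6 in the 3 bladder libraries, and Bmp3 in the 2 lung libraries, whereas Bmp5 is low only in intestine and Bmp7 only in lung.

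The Bmp2 gene (chromosome 2, 133394079 to 133404805, plus strand, build mm39) was the one ligand gene with its highest level in intestine. Its values were 1043, 1046 and 1174 in bladder, 2590, 2538 and 2713 in intestine, and 539 and 569 in lung. No library of one organ overlapped those of another, and the order was intestine, bladder, lung. Intestine was 2.40-fold above bladder (log2 difference 1.27, SE 0.08, limma adjusted p = 1.66e-06 after Benjamini-Hochberg). Lung was 1.96-fold below bladder (-0.97, SE 0.09, limma adjusted p = 2.66e-05, but -0.46 with the deposited scaling undone) and 4.71-fold below intestine (-2.24, SE 0.09, limma adjusted p = 2.85e-07). Endothelium, which also makes BMP2, moved with it in part: its 10 marker genes summed to 1437 to 1613 ppm in intestine, 464 to 621 in bladder and 874 to 951 in lung, so that lung, lowest in Bmp2, was above bladder in endothelial markers. Genes of intestinal epithelium (927 to 1036 ppm in intestine, at most 66.3 elsewhere) and of enteric neurons and glia (356 to 404 ppm, against 44.2 to 136 elsewhere) were also highest in intestine. All 11 genes of the neuron and glia list and 9 of 10 of each of the other lists rose from bladder to intestine, while 1 endothelial gene fell. The part of these cells in the Bmp2 difference was not tested.

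Its close relative Bmp4 (chromosome 14, 46620977 to 46628126, minus strand) differed in the opposite direction between intestine and bladder. It was highest in bladder, with 3364, 3527 and 3268. Intestine libraries gave 1287, 1369 and 1422, and lung libraries gave 884 and 1349. The bladder libraries stood above all others, while the lung and intestine libraries overlapped. Bmp4 fell 2.49-fold from bladder to intestine (-1.32, SE 0.13, limma adjusted p = 3.62e-05) and 3.10-fold from bladder to lung (-1.63, SE 0.15, limma adjusted p = 3.33e-05). Lung and intestine did not pass the test (-0.31, SE 0.15, limma adjusted p = 0.126, 95% interval -0.65 to 0.02), and without lung library 2 they did (-0.62, limma adjusted p = 0.000687). Within a library, where the scaling between libraries plays no role, the log2 ratio of Bmp2 to Bmp4 per kb of exon was -2.41 to -2.14 in bladder, 0.23 to 0.35 in intestine, and -1.37 and -1.91 in lung. Bmp2 transcript thus exceeded Bmp4 transcript per kb in all 3 intestine libraries and in none of the other 5.

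Bmp6 (chromosome 13, 38529083 to 38684278, plus strand), known for its part in iron regulation when made by liver endothelium, had the lowest adjusted p of the 10 genes in the F test. Its values were 4866, 5293 and 4826 in bladder, 2037, 1820 and 1899 in intestine, and 422 and 478 in lung. The 3 organs did not overlap. Bmp6 was 2.60-fold lower in intestine than in bladder (-1.38, SE 0.08, limma adjusted p = 1.12e-06), 11.1-fold lower in lung than in bladder (-3.47, SE 0.09, limma adjusted p = 4.04e-08) and 4.26-fold lower in lung than in intestine (-2.09, SE 0.09, limma adjusted p = 3.77e-07). Its exons share 224 bases (5.74% of its exon length) with Txndc5 on the opposite strand, whose level was 5536 ± 373 (SD, n = 3) in bladder, 3818 ± 130 (SD, n = 3) in intestine and 3754.5 ± 204 (SD, n = 2) in lung. Reads from the shared bases cannot be told apart without strand.

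Markers of several other cell types were, like Bmp4 and Bmp6, highest in bladder. All 10 fibroblast genes (Pdgfra, Col1a1 and Dcn among them) were lower in intestine and in lung than in bladder, and 5 of them were lower in lung than in intestine. On the log2 scale Pdgfra differed from bladder by -0.73 in intestine and -3.12 in lung, and Col1a1 by -0.53 and -0.56. Counts of the marker lists were made with the deposited scaling alone. Of 8 markers of PDGFRA-high fibroblasts under the epithelium, a cell known as a BMP source in the gut, 5 were lower and 2 higher in intestine than in bladder, and they summed to 1269 to 1340, 826 to 940 and 640 to 670 ppm in bladder, intestine and lung. No gene of either list was at 0 in every library of an organ. Urothelium genes summed to 648 to 877 ppm in bladder, 75.0 to 83.2 in intestine and 39.1 to 55.0 in lung. Of these 10 genes, 9 were lower in each of the other organs than in bladder, and 1 was higher in intestine. In that list Krt5 was at 0 in all libraries of intestine and lung, and Upk2 in those of lung. Leukocyte genes summed to 290 to 502, 149 to 169 and 209 to 260 ppm, and 5 of the 11 tested were lower and 4 higher in each of the other organs than in bladder. The part of any of these cells in the Bmp4 and Bmp6 differences was not tested. In bladder both genes were densely read, at 1.18 to 1.33 reads per nt of exon for Bmp4 and 0.984 to 1.13 for Bmp6. Among all genes, the 339 that averaged 1 or more reads per nt were lower outside bladder, by a median of -0.40 on the log2 scale in intestine and -0.42 in lung. The differences of Bmp4 and Bmp6 were larger, and the part of read density in them was not tested.

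Bmp5 (chromosome 9, 75682646 to 75807592, plus strand), a ligand of the BMP6 subgroup, was low in intestine alone. Its libraries gave 1271, 1193 and 1244 in bladder, 285, 354 and 300 in intestine, and 1376 and 979 in lung. The intestine libraries lay below all others, and the lung libraries lay on either side of the bladder libraries. The level in intestine was 3.96-fold below bladder (-1.98, SE 0.14, limma adjusted p = 3.60e-06) and 3.72-fold below lung (1.89 for lung minus intestine, SE 0.15, limma adjusted p = 1.38e-05). Lung and bladder did not pass the test (-0.09, SE 0.15, limma adjusted p = 0.684), with a 95% interval of -0.44 to 0.26. The sign of that difference turned with equal totals (0.06), with the deposited scaling undone (0.42) and without lung library 2 (0.16), and the pair passed in none of the alternatives. In GENCODE M21, 1878 bases (46.7%) of the Bmp5 exons are shared with Gm26903 on the opposite strand, which was at 0 to 7. Reads from the shared bases cannot be told apart without strand and may have been counted for neither gene. The level of Bmp5 per kb of exon may therefore be too low, which was not tested.

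Bmp7 (chromosome 2, 172709805 to 172782114, minus strand), which is needed for kidney and eye development, was low in lung alone. Its values were 464, 589 and 807 in bladder, 518, 598 and 525 in intestine, and 42 and 49 in lung. Bladder and intestine overlapped, and lung was far below both. Lung was 13.1-fold below bladder (-3.71, SE 0.22, limma adjusted p = 2.94e-06) and 11.8-fold below intestine (-3.56, SE 0.22, limma adjusted p = 2.64e-06). Intestine and bladder did not pass the test (-0.15, SE 0.20, limma adjusted p = 0.568, 95% interval -0.60 to 0.30). The sign turned with the deposited scaling undone (0.25) and without bladder library 3 (0.06), again without passing. Epithelium is a known source of BMP7, and 9 of 10 general epithelium genes and 7 of 8 mesothelium genes were lower in lung than in bladder. The other general epithelium gene was higher. In lung the epithelium list summed to 67.6 and 111 ppm and the mesothelium list to 50.6 and 100.1 ppm, the lowest of all libraries. Bladder library 3, highest in Bmp7 among the bladder libraries, was also highest there in general epithelium (568 ppm, against 397 and 350) and urothelium (877 ppm, against 705 and 648). The intestine libraries held 1590 to 1694 ppm of general epithelium genes with Bmp7 inside the range of the bladder libraries, and the part of these cells in the Bmp7 difference was not tested.

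Bmp3 (chromosome 5, 99002274 to 99032255, plus strand), the divergent and antagonistic member, was highest in lung. Bladder libraries gave 1139, 1049 and 1286, intestine libraries 145, 150 and 226, and lung libraries 2718 and 1907. The organs did not overlap, although the lung libraries differed by more than those of bladder. Lung was 1.97-fold above bladder (0.98, SE 0.22, limma adjusted p = 0.00563, and 1.49 with the deposited scaling undone) and 13.3-fold above intestine (3.74, SE 0.22, limma adjusted p = 1.79e-06). Intestine was 6.75-fold below bladder (-2.76, SE 0.19, limma adjusted p = 3.86e-06). Lung epithelium genes were also highest in lung, with a sum of 385 and 389 ppm against 30.9 to 38.7 in bladder and 62.9 to 71.4 in intestine. Of these 10 genes, 8 were higher and 1 was lower there than in bladder. Their part in the Bmp3 difference was not tested.

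**Figure D2:**
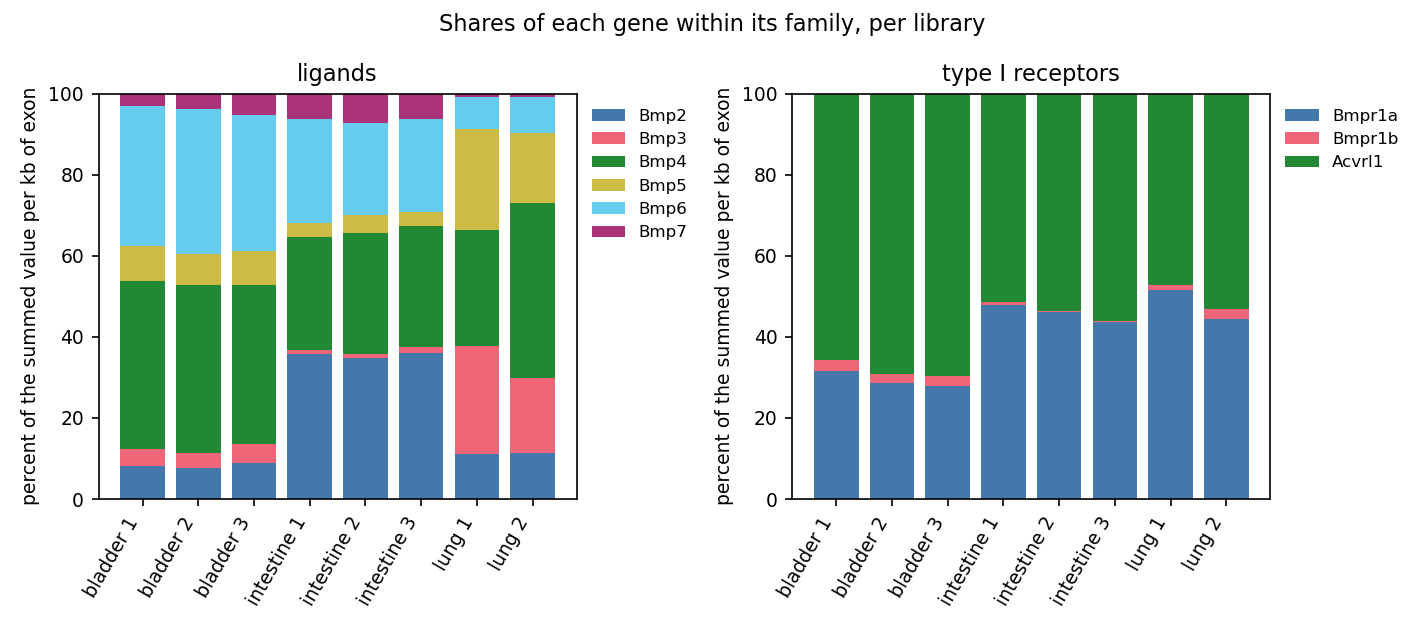
Share of each gene in the summed normalized value per kb of exon, for the 6 ligand genes (left) and the 3 type I receptor genes (right), as stacked bars with 1 bar per library and a vertical axis in percent. Bmp4 and Bmp6 fill most of the bladder bars, Bmp2 has its largest share in intestine, and Bmp3 and Bmp5 have theirs in lung.

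Put on a common scale per kb of exon, the 6 ligand genes made up a different mixture in each organ. In bladder, Bmp4 held 40.6% ± 1.17 (SD, n = 3) of the summed ligand value and Bmp6 34.5% ± 1.14, while each of the other 4 held at most 8.91% in any bladder library. In intestine the leading share was that of Bmp2, at 35.5% ± 0.58 (SD, n = 3), ahead of Bmp4 at 29.2% ± 1.03 and Bmp6 at 23.8% ± 1.55, and the ranges of the 3 shares did not overlap. In lung, Bmp4 held 28.6% and 43.0% in the 2 libraries, Bmp3 26.8% and 18.5%, and Bmp5 24.9% and 17.4%. The lung libraries thus put Bmp4 ahead of Bmp3 in both cases, by a small margin in library 1 and a wide one in library 2. Bmp3 held at most 1.44% in any intestine library, and Bmp7 held 0.76% and 0.87% in lung. The sum over the 6 genes was 3711 ± 91.3 per kb in bladder, 2069 ± 42.6 in intestine (SD, n = 3 each) and 1384 ± 16.4 in lung (SD, n = 2), with no overlap between organs. These sums weigh each gene by the exon length of GENCODE M21, so the isoforms in use could shift them. The exon bases that Bmp5 shares with Gm26903 could also shift its shares, and its orders and ratios per kb given below. Shares within a library do not depend on the scaling between libraries.

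**Figure D3:**
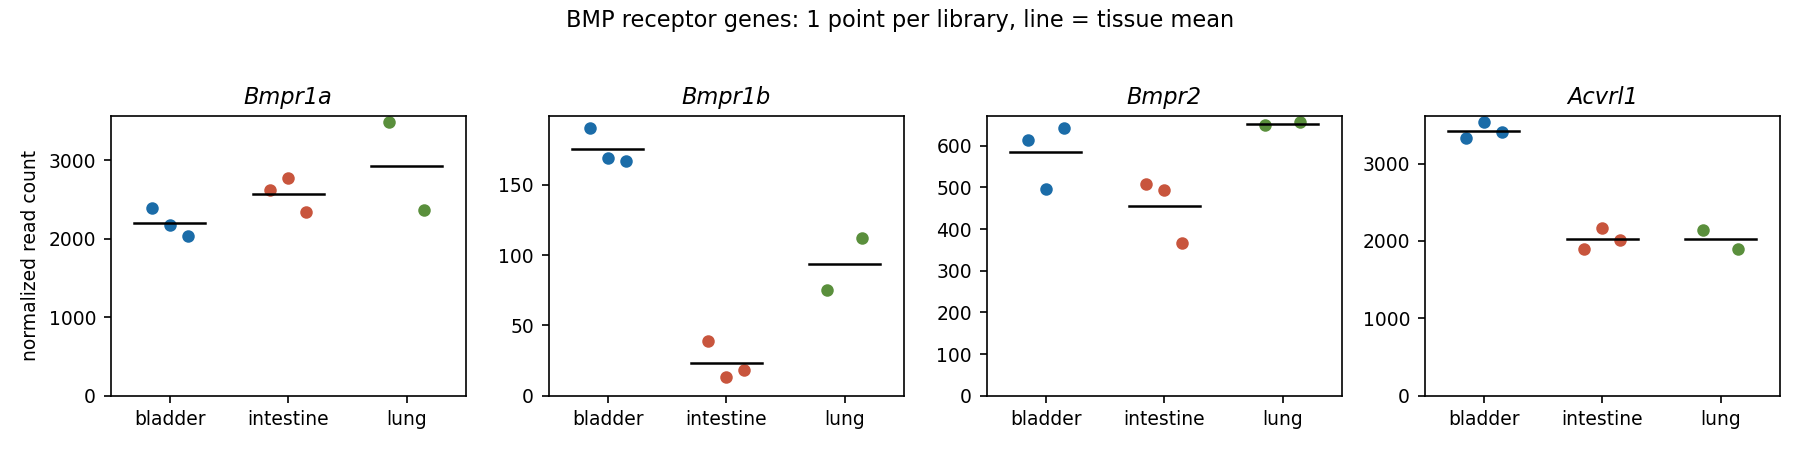
Normalized read counts of the 4 BMP receptor genes (vertical axes from 0, scaled per gene) in bladder, intestine and lung, with 1 point per library and a line at the mean of each organ. Acvrl1 is highest in the 3 bladder libraries and Bmpr1b lowest in the 3 intestine libraries, while the organs overlap for Bmpr1a.

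Of the 4 receptor genes, Bmpr1b and Acvrl1 differed between bladder and intestine, and Bmpr1a between no pair of organs. Bmpr1a (chromosome 14, 34132691 to 34225298, minus strand), the widely expressed type I receptor of BMP2 and BMP4, was at 2395, 2176 and 2032 in bladder, 2619, 2774 and 2335 in intestine, and 3492 and 2363 in lung. The 3 organs overlapped, and no pair passed the test (limma adjusted p = 0.194, 0.0701 and 0.435 for intestine against bladder, lung against bladder and lung against intestine). The 95% interval of the log2 difference was -0.08 to 0.53 for intestine minus bladder, 0.04 to 0.73 for lung minus bladder and -0.18 to 0.50 for lung minus intestine. The call for this gene depended on settings: lung was above bladder without lung library 2 (0.67, limma adjusted p = 0.00236), with equal totals (0.53, limma adjusted p = 0.0149), with quantile normalization (0.61, limma adjusted p = 0.00964) and with the deposited scaling undone (0.90, limma adjusted p = 0.00232). Lung was above intestine without lung library 2 (0.44, limma adjusted p = 0.0194) and below it, without passing, without lung library 1 (-0.12).

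Bmpr1b (chromosome 3, 141542897 to 141875186, minus strand), a type I receptor known for its role in cartilage and the ovary, was the lowest of the 4 receptor genes in raw level. Bladder libraries gave 190, 169 and 167, intestine libraries 39, 13 and 18, and lung libraries 75 and 112. The 3 organs did not overlap. The intestine level was 8.00-fold below bladder (-3.00, SE 0.39, limma adjusted p = 0.000170) and 4.21-fold below lung (2.07 for lung minus intestine, SE 0.44, limma adjusted p = 0.00457). Lung and bladder did not pass the test (-0.93, SE 0.44, limma adjusted p = 0.122, 95% interval -1.91 to 0.06), although their libraries did not overlap. The pair passed when only these 2 organs were fitted (limma adjusted p = 0.0266) and without intestine library 1 (limma adjusted p = 0.0485). At these levels the intestine libraries held few reads, 0.00251 to 0.00711 per nt of exon.

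Acvrl1 (chromosome 15, 101026403 to 101043217, plus strand) encodes ALK1, the type I receptor through which BMP9 and BMP10 act on endothelium. Its values were 3335, 3534 and 3404 in bladder, 1898, 2164 and 2019 in intestine, and 2144 and 1898 in lung. Bladder lay above both other organs, which overlapped. Acvrl1 was 1.69-fold lower in intestine (-0.76, SE 0.07, limma adjusted p = 2.51e-05) and 1.70-fold lower in lung (-0.76, SE 0.08, limma adjusted p = 8.02e-05) than in bladder, while lung against intestine did not pass the test (95% interval -0.19 to 0.18, limma adjusted p = 0.970). With the deposited scaling undone the lung difference was -0.25 and no longer passed (limma adjusted p = 0.0930), and the intestine difference was -0.36 (limma adjusted p = 0.0146). With quantile normalization the intestine difference was -0.49. Of 10 endothelial markers, 9 were raised and 1 was reduced in intestine relative to bladder, and 6 were raised and 2 reduced in lung. The part of endothelium in the Acvrl1 differences was not tested.

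Bmpr2 (chromosome 1, 59802559 to 59918173, plus strand), the type II receptor shared by the BMPs, gave 614, 497 and 642 in bladder, 508, 493 and 366 in intestine, and 649 and 657 in lung. Both lung libraries lay above all others, by a small margin over bladder, and bladder overlapped intestine. Lung was 1.45-fold above intestine (0.53, SE 0.17, limma adjusted p = 0.0332), a call that was lost without lung library 1, lung library 2 or intestine library 3 (limma adjusted p = 0.0702, 0.0994 and 0.0832). The other pairs did not pass the test, with -0.36 (SE 0.15, limma adjusted p = 0.0717, 95% interval -0.71 to -0.02) for intestine minus bladder and 0.17 (SE 0.17, limma adjusted p = 0.470, 95% interval -0.21 to 0.55) for lung minus bladder. The first of these passed with quantile normalization (-0.54, limma adjusted p = 0.0151) and without bladder library 2 (-0.48, limma adjusted p = 0.0410), and its sign turned with the deposited scaling undone (0.03, limma adjusted p = 0.902). The second passed with the scaling undone (0.68, limma adjusted p = 0.0241).

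Per kb of exon, Acvrl1 made up 68.1% ± 2.15 (SD, n = 3) of the 3 type I receptor genes in bladder, 53.7% ± 2.29 (SD, n = 3) in intestine and 47.2% and 53.2% in lung. Bmpr1a made up nearly all of the rest. Bmpr1b held 2.36 to 2.68% in bladder, 0.23 to 0.76% in intestine, and 1.18% and 2.25% in lung. The balance of Acvrl1 and Bmpr1a therefore differed between bladder and the other organs beyond the spread of the libraries. The lowest bladder share of Acvrl1 (65.7%) was above the highest elsewhere (56.1%). The shares leave out other type I receptor genes. One of them, Acvr1, is named here outside the rule given below. It was at 1106 ± 41.5 in bladder, 510 ± 20.1 in intestine (SD, n = 3 each) and 867.5 ± 301 in lung (SD, n = 2). Acvr1 was lower in intestine than in bladder (-1.12, limma adjusted p = 0.000312), while lung against bladder did not pass (-0.39, limma adjusted p = 0.109).

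**Figure D4:**
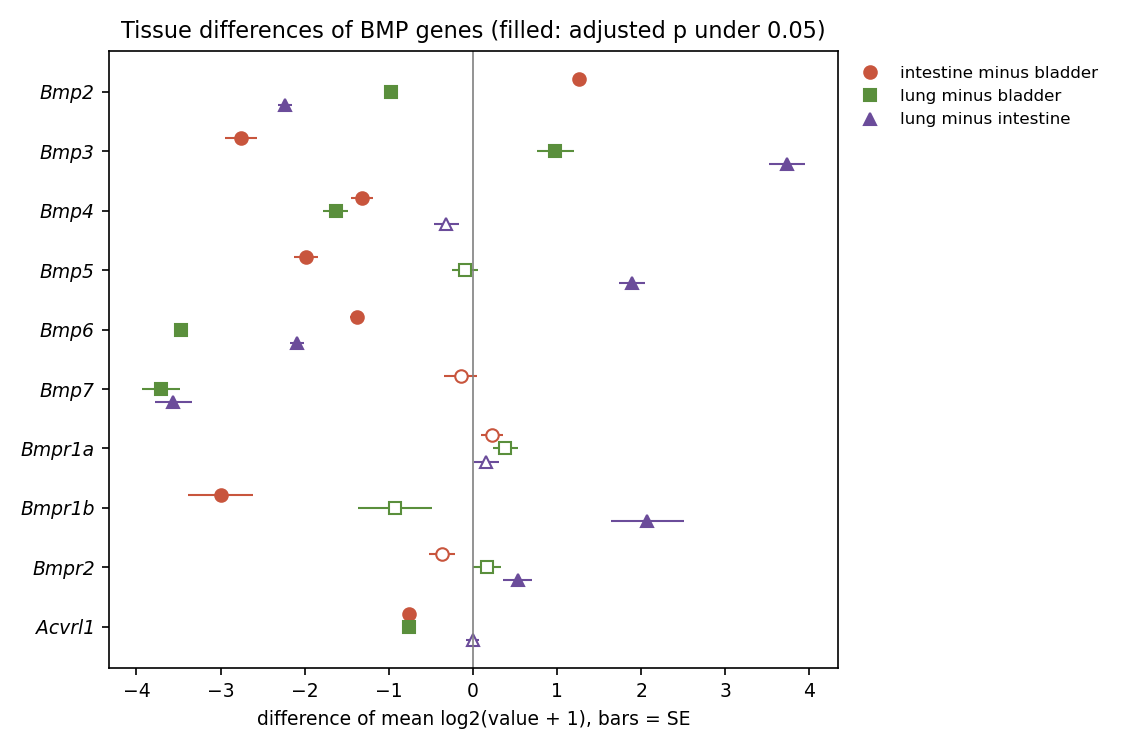
Difference of mean log2(value + 1) between organs for the 10 BMP genes (horizontal axis, bars show SE, filled symbols have a limma adjusted p under 0.05). The 6 ligand genes span -3.71 to 3.74, while the symbols of Bmpr1a, Bmpr2 and Acvrl1 stay between -0.76 and 0.53.

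The order of the 10 genes within an organ, per kb of exon, began with Bmp4 (1506 ± 58.2), Bmp6 (1281 ± 66.4) and Acvrl1 (803 ± 23.7) in bladder (SD, n = 3). The ranges of these 3 genes did not overlap there, whereas Bmp5 and Bmp2 (307 ± 9.84 and 306 ± 21.0) and Bmp3 and Bmp7 (157 ± 16.2 and 154 ± 43.2) did not differ beyond their spread. In intestine Bmp2 (735 ± 25.3) led, followed by Bmp4 (605 ± 30.3), and then by Bmp6 (492 ± 28.2) and Acvrl1 (475 ± 31.2), which were within each other's spread (SD, n = 3). In lung Bmp4 (497 ± 146), Acvrl1 (474 ± 40.8) and Bmpr1a (461 ± 126) were not separated (SD, n = 2), nor were Bmp3 (313 ± 77.5) and Bmp5 (293 ± 69.7). Bmpr2, with the longest exon sequence of the 10 genes (17983 nt), was at 25.3 to 36.3 per kb on average in each organ.

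Other genes of the pathway came from 6 lists of 86 genes, of which 79 were in the table and 72 were tested. Of the 72, 22 were higher and 27 lower in intestine than in bladder, while undoing the deposited scaling gave 29 and 14. Of all genes tested, 28.7% were higher and 23.3% lower in that comparison. For lung against bladder the numbers were 21 and 26, beside 19.2% and 21.8% of all genes. Undoing the scaling turned these into 36 and 11, and quantile normalization into 21 and 17. In lung against intestine 22 were higher and 21 lower, beside 15.9% and 23.6% of all genes. Without lung library 2 these were 14 and 21, and without intestine library 2 they were 15 and 18. The same shares of all genes are the background for each of the 6 lists. The median log2 differences of the 72 genes were -0.17, -0.13 and -0.09 in the 3 comparisons, beside 0.06, 0 and -0.04 over all genes tested.

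**Figure D5:**
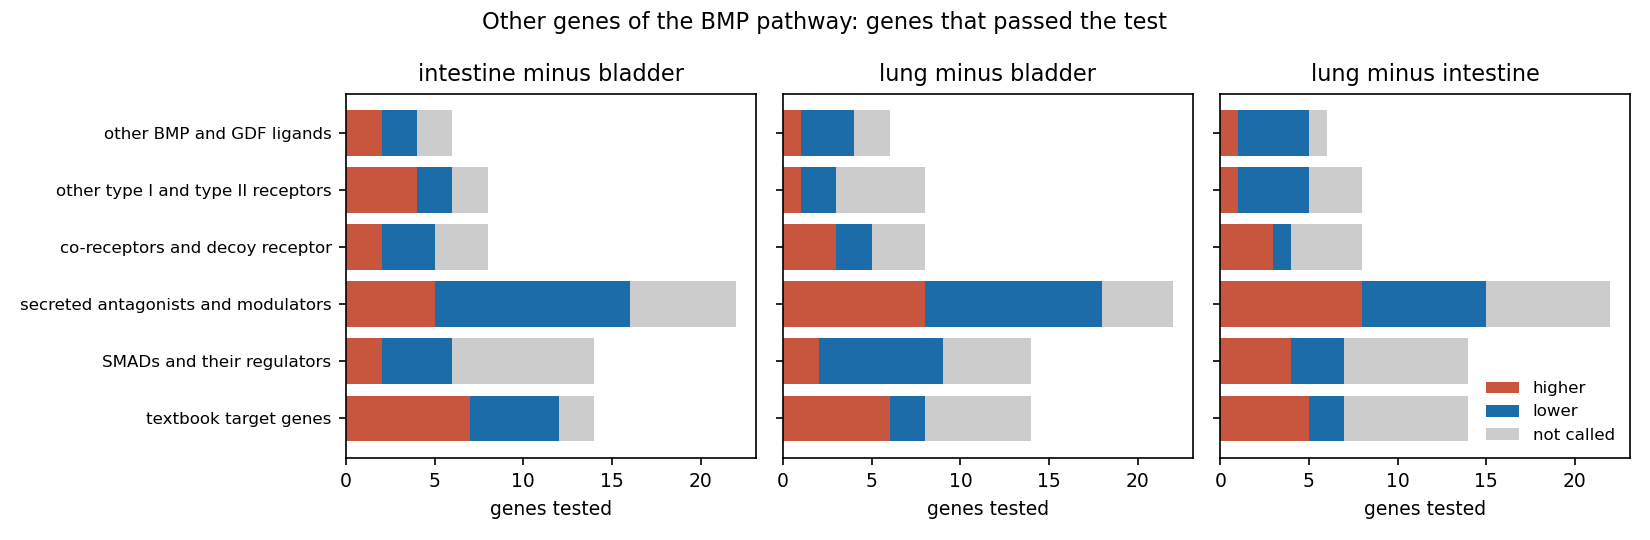
Number of tested genes (horizontal axis) in 6 lists of other BMP pathway genes that were higher, lower or not called (limma adjusted p of at least 0.05) in each organ comparison. The list of secreted antagonists, with 22 genes tested, has 16, 18 and 15 called genes in the 3 comparisons.

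Among further ligands of the BMP and GDF family only 6 of 17 were tested, and the others were low or not in the table. Gdf10, a close relative of Bmp3, went from 4001 ± 203 in bladder to 2986 ± 186 in intestine (SD, n = 3 each) and 1346.5 ± 383 in lung (SD, n = 2). It was 3.03-fold lower in lung than in bladder (limma adjusted p = 3.23e-05). The difference between intestine and bladder (-0.42, limma adjusted p = 0.0219) passed in 11 of 18 alternatives. It was lost with each of the other scalings (-0.33 with equal totals, -0.08 with quantile normalization, -0.03 with the scaling undone), without a trend, and without bladder library 2 (-0.38) or intestine library 1 (-0.37) or 2 (-0.43). Gdf6 was 2.79-fold lower in lung than in bladder (-1.48, limma adjusted p = 0.00229, but -0.97 with the scaling undone and -0.95 without lung library 1), and Gdf11 was 3.65-fold higher in intestine than in bladder (1.87, limma adjusted p = 0.00178, and 1.24 with quantile normalization). Gdf15, a stress-induced ligand, was 3.27-fold higher in lung than in bladder (limma adjusted p = 0.00271). Bmp8a was at 0 in both lung libraries and at 46, 36 and 9 in intestine. Its intestine mean of 30.3 ± 19.1 was at least 12.0-fold above lung when 3 reads per library are allowed at 0. For intestine against bladder 2 genes of this list rose and 2 fell. Undoing the scaling gave 4 and 0, and equal totals gave 3 and 1. In all, 4 were called there, but 1 without bladder library 2 and 2 without intestine library 1 or 2. For lung against intestine it was 5, but 3 without intestine library 2.

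Of 8 other receptor genes, 4 were higher and 2 lower in intestine than in bladder. The activin type II receptor gene Acvr2b rose from 220 ± 33.0 to 531 ± 21.5 (2.43-fold, limma adjusted p = 8.29e-05), and the activin receptor gene Acvr1c went from 1 ± 1.73 to 35 ± 5. In lung Acvr1c was at 0 in both libraries, at least 13.8-fold below the intestine mean. Tgfbr2, the TGF-beta type II receptor gene, was 2.12-fold lower in lung than in bladder (-1.09, limma adjusted p = 1.90e-05, but -0.62 with quantile normalization and -0.57 with the scaling undone). In that comparison 1 of the 8 was higher and 2 were lower (2 and 1 with the scaling undone), and 1 gene was called when bladder library 1 or 2 or any 1 of the 3 intestine libraries was left out. For lung against intestine 1 was higher and 4 lower. Of 8 co-receptor genes, 2 were higher and 3 lower in intestine than in bladder, 3 higher and 2 lower in lung than in bladder, and 3 higher and 1 lower in lung than in intestine. With the scaling undone the co-receptor numbers against bladder were 3 higher and 1 lower for intestine and 5 and 0 for lung. Hjv, which encodes hemojuvelin, the co-receptor of BMP6 in iron regulation, was at 6.33 ± 5.03 in bladder, 327 ± 67.3 in intestine (SD, n = 3 each) and 482 ± 56.6 in lung (SD, n = 2), with means in the reverse order of those of Bmp6. It was higher than in bladder in intestine (log2 difference 5.81, limma adjusted p = 3.05e-05) and in lung (6.38, limma adjusted p = 5.71e-05). Lung against intestine did not pass the test (0.57, limma adjusted p = 0.510), so the order of those 2 organs is not settled for Hjv. Cd109, a TGF-beta co-receptor gene, was 22.3-fold higher in lung than in intestine (limma adjusted p = 4.97e-06).

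Secreted antagonists and modulators were the longest list, with a median absolute log2 difference of 0.91, 1.54 and 1.35 in the 3 comparisons. Of 22 tested, 5 were higher and 11 lower in intestine than in bladder, 8 higher and 10 lower in lung than in bladder, and 8 higher and 7 lower in lung than in intestine. With the scaling undone these became 6 and 8, 12 and 7, and 10 and 7, and with quantile normalization 4 and 12, 8 and 7, and 11 and 5. Grem1 (gremlin 1), which binds BMP2 and BMP4, was at 1, 9 and 19 in bladder, 1947, 2228 and 2256 in intestine, and 554 and 1056 in lung. It was higher in intestine than in bladder (8.18 on the log2 scale, SE 0.69, limma adjusted p = 1.15e-05) and higher in lung than in bladder (6.70, limma adjusted p = 0.000133). Lung against intestine did not pass the test (-1.48, limma adjusted p = 0.159), although the libraries did not overlap. Nog (noggin) was at 18 ± 3.61, 88 ± 15.1 and 234.5 ± 94.0 in bladder, intestine and lung. Fst (follistatin) was lowest in intestine, at 112 ± 5.77, against 628 ± 29.6 in bladder and 2172.5 ± 699 in lung. Sost, which encodes sclerostin, was at 1938 and 1374 in lung, at most 5 in bladder and at most 15 in intestine. Sostdc1 was at 220 ± 25.5 in bladder and at 0 in both lung libraries, at least 86.9-fold below the bladder mean.

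Of 14 genes for SMADs and their regulators, 2 were higher and 4 lower in intestine than in bladder, and 4 were higher and 3 lower in lung than in intestine. In lung 2 were higher and 7 lower than in bladder, but undoing the scaling gave 8 and 0. Equal totals gave 4 and 4, whereas quantile normalization gave 3 and 2. The intestine numbers became 4 and 1 with the scaling undone and 3 and 1 with quantile normalization, so that no direction held for the list against bladder. The genes of both inhibitory SMADs, which are themselves induced by BMP signals, were highest in lung. Smad6 levels in bladder, intestine and lung were 1329 ± 184, 1127 ± 107 and 2708 ± 46.7 (2.05-fold above bladder, limma adjusted p = 0.000148). Smad7 was at 853 ± 78.5, 863 ± 47.1 and 1613 ± 233 (1.89-fold above bladder, log2 difference 0.91, limma adjusted p = 0.000284, and 1.43 with the scaling undone). Smad5, one of the receptor-activated SMADs, was 1.89-fold lower in lung than in bladder (-0.92, limma adjusted p = 0.00369), a call that was lost with the scaling undone (-0.40). Smurf1, a ubiquitin ligase that targets SMAD1 and SMAD5, was 1.79-fold higher in intestine than in bladder (limma adjusted p = 4.88e-05).

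Of 14 textbook target genes, 7 were higher and 5 lower in intestine than in bladder, 6 higher and 2 lower in lung than in bladder, and 5 higher and 2 lower in lung than in intestine. With the scaling undone 8 were higher and 2 lower in intestine than in bladder, and 8 and 0 in lung. Without lung library 2 the last 2 of these comparisons had 5 and 3 called genes in place of 8 and 7. Without lung library 1 or intestine library 3 lung against intestine had 4. Hey2, also a NOTCH target, had means of 76.7 ± 15.3, 858 ± 41.6 and 700.5 ± 161 in bladder, intestine and lung. Atoh8 was at 480 ± 133, 1216 ± 52.6 and 1879.5 ± 14.8 (4.02-fold higher in lung than in bladder, limma adjusted p = 5.40e-05). Msx2 was at 36, 48 and 118 in bladder, 5, 0 and 0 in intestine, and 12 and 14 in lung. The 4 genes of the ID family were named after their values were seen. Id4 was higher in lung, with 2791 and 2375 against 1158 to 1219 in bladder (log2 difference 1.12, limma adjusted p = 5.16e-05), and this call was made in all 18 alternatives. Intestine exceeded bladder in Id1 and Id4 (0.35 and 0.37, limma adjusted p = 0.0126 and 0.0111), also in all 18. Id1 in lung against bladder (0.30, limma adjusted p = 0.0493) passed in 8 of 18 alternatives. Id2 was at 2386 to 2612 in bladder, 1997 to 2177 in intestine and 2281 and 2332 in lung, and Id3 at 2385 to 2666, 1903 to 2087, and 2141 and 2236. Their differences from bladder in intestine (-0.24 for Id2 and -0.34 for Id3) and in lung (-0.10 and -0.22) changed sign with the scaling undone (0.16, 0.06, 0.41 and 0.29). That setting leaves depth differences in the values and raises the median gene over bladder, so it cannot decide a small difference. In intestine Id2 passed in 14 of 18 alternatives, but was lost with equal totals (-0.15) and quantile normalization (-0.015). Id3 in intestine passed in 16 of 18, but was lost with quantile normalization (-0.11). For lung no direction is given, Id3 being at 0.0097 with quantile normalization.

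Genes with the most similar courses over the 8 libraries were found by the Euclidean distance between log2(value + 1) profiles centred on their means, with 2 named for each of the 9 BMP genes that differed among organs. For Bmp4 they were the cathepsin gene Ctsk (distance 0.17) and the fucosyltransferase gene Pofut1 (0.23), beside a distance of 2.05 from a flat profile. For Bmp6 they were the prostaglandin synthase gene Ptgs2 (0.38, with 2479, 955 and 247.5 on average in bladder, intestine and lung) and the mannosidase gene Man1a (0.38), beside 3.81 from a flat profile. Bmp2 had Inha, the inhibin alpha gene of the same superfamily, at 0.35 and Ahcyl2 at 0.37 (2.51 from flat). Bmp5 had the growth factor gene Fgf7 at 0.46 and the transcription factor gene Gata5 at 0.64. The nearest profiles were farther for Bmp3 (Spp1 at 0.92 and Ism1 at 1.02, 4.49 from flat), Bmp7 (Nr4a2 at 0.61 and Cck at 0.86, 4.49 from flat) and Bmpr1b (Colec11 at 0.86 and Gjb5 at 1.11, 3.92 from flat). Acvrl1 had Anks3 at 0.19 and Palm at 0.21 (1.06 from flat), and Bmpr2 had Dync2li1 at 0.26 and Mblac2 at 0.33 (0.77 from flat). Over 3 organs, such a distance describes little more than 3 means.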

How the data were processed

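RNA of sorted cells was prepared with the SMART-Seq v4 kit from at most 10 ng of total RNA, per the labels' protocols; the kit does not mark strand. Per the submitters' processing notes, which give no role or order, the tools were featureCounts 2.0.4, STAR 2.7.10a, Trimmomatic 0.39, DESeq2 1.36.0 and Picard 3.0.0, with build mm39. Annotation, strand setting and filters were not given in the sources used here.

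Values as deposited, handled as a score, are whole numbers whose gaps look like those of read numbers that were scaled library by library and then rounded. The value of 1 read, estimated from that spacing, was 0.822 to 1.27, and estimates recovered known spacings when tested on simulated data. Reconstructed reads gave depth (9.72 to 13.6 M reads), reads per nt and the limit of 3 reads for a value of 0, which covers counting error only. Exon lengths (for 96.8% of gene IDs) and exon overlaps came from GENCODE M21. It is of another build, so its coordinates were compared only with each other.

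limma 3.58.1 in R 4.3.3 was fitted to log2(value + 1) with an intensity trend, all 8 libraries in 1 fit, and p-values were Benjamini-Hochberg adjusted over 18097 genes. Named genes were all 10 BMP genes, up to 3 called, non-overlapping genes of largest difference with a mean of at least 10 per pathway list and comparison (not all are printed), 2 nearest profiles per BMP gene (without predicted genes and pseudogenes), and Acta2, Myh11 and Cspg4, of which Myh11 was at 4423 to 12454. The members and lists were chosen with earlier results of these data known. Interstitial cell of Cajal markers summed to 86.2 to 98.4, 350 to 421 and 199 to 355 ppm, and leukocyte markers to 290 to 502, 149 to 169 and 209 to 260 ppm, in bladder, intestine and lung. Alternatives were other pseudocounts, filters and scalings, a fit without trend, with a replicate block, with 2 organs, and without each library.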

Additional observations from a re-analysis of the deposited data

How the results depend on the processing

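The total number of BMP genes called, both directions together, stayed within 1.5 times under the 18 alternatives, as did the totals over all genes and over the 72 other pathway genes; the numbers per direction did not, as given above. Quantile normalization called 9 of the 10 for intestine against bladder in place of 7. The 7 calls of Bmp2, Bmp3, Bmp4, Bmp5, Bmp6, Bmpr1b and Acvrl1 between intestine and bladder held in every alternative. Acvrl1 in lung against bladder was lost with the deposited scaling undone (given above). Bmpr2 in lung against intestine was called in 12 of 18 alternatives, and was lost without the trend (limma adjusted p = 0.0683), with only those 2 organs (0.0536) and without 3 single libraries (above). Bmpr1a in intestine against bladder, not called, was called in 5 of 18, with log2 differences of 0.17 to 0.62. Id2 and Id3, named after their values were seen, changed sign with the deposited scaling undone: 0.16 and 0.058 for intestine against bladder and 0.41 and 0.29 for lung against bladder, where Id3 was also at 0.0097 with quantile normalization. Over all genes the median log2 difference moved from 0.06, 0 and -0.04 to 0.45, 0.48 and 0.07 with the deposited scaling undone, to 0.15, 0.12 and 0.01 with equal totals, and to -0.15, 0.03 and 0.18 with quantile normalization. The share of calls that were higher, 55.2%, 46.7% and 40.3%, became 81.2%, 80.7% and 50.9%, then 61.8%, 58.5% and 45.9%, then 41.7%, 50.3% and 59.5%. List counts that moved by over 1.5 times beside those given were: further ligands, 4 to 2 with quantile normalization or without trend (intestine against bladder); other receptors, 3 to 1 with either (lung against bladder) and 5 to 3 with a minimum of 50 (lung against intestine); targets, 7 to 4 with that minimum, which tests fewer genes. Leaving out 1 lung library assumes that the remaining one varies like the other groups. Same-numbered libraries showed little common deviation from their organ means (correlation -0.03 to 0.06). With 2 or 3 libraries per organ, whose deviations sum to 0, this cannot decide whether the numbers pair libraries. With the replicate block 7, 6 and 6 BMP genes were called, Bmpr2 in lung against intestine being lost (0.49, limma adjusted p = 0.0773). Of all genes, 9040, 6786 and 6496 were called with it in place of 9395, 7418 and 7157. Over the 3 organs 8 BMP genes were called with the block. Bmpr1b in intestine, at 13 to 39, is limited by depth.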

Other observations

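The 2 lung libraries differed in several BMP genes in a direction not shared by all of them. Library 1 was above library 2 in Bmp3 (2718 and 1907), Bmp5 (1376 and 979) and Bmpr1a (3492 and 2363), and below it in Bmp4 (884 and 1349) and Bmpr1b (75 and 112), whereas Bmp2 (539 and 569), Bmp6 (422 and 478) and Bmpr2 (649 and 657) were close. Fibroblast markers summed to 3403 ppm in library 1 and 3870 ppm in library 2, interstitial cell of Cajal markers to 355 and 199 ppm, and general epithelium markers to 67.6 and 111 ppm. With 1 pair of libraries there is no test of these differences.

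Within-library ratios gave further contrasts that do not depend on scaling between libraries. The log2 ratio of Bmp5 to Bmp7 per kb of exon was 0.62 to 1.45 in bladder, -0.86 to -0.76 in intestine, and 5.03 and 4.32 in lung. That of Bmp3 to Bmp2 was -1.05 to -0.93 in bladder, -5.22 to -4.64 in intestine, and 1.28 and 0.69 in lung. That of Bmp4 to Bmp6 was 0.21 to 0.26 in bladder and 0.13 to 0.38 in intestine, which overlap, and 1.86 and 2.29 in lung.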
